A study of Mus musculus with 6 samples.

Results

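The genes described here are 10 mouse genes that encode complement proteins and serum amyloid A, namely C1qa, C1qb, C1qc, C2, C4b, C3, Cfb, Saa1, Saa2 and Saa3. They were picked by name from a colon RNA sequencing table that lists 27202 genes. The rule uses gene names alone, but the genes were proposed when earlier results of these data were known. All 10 were listed and all 10 passed the filter on low values, which kept 16246 genes with a mean of at least 10 normalized counts over the 6 libraries.

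RNA came from whole colonic tissue of 3 mice labelled Nedd4l knockout (cKO) and 3 littermates labelled WT, aged 8 to 10 weeks. Cre under the Villin promoter, which is active in intestinal epithelial cells (IECs), deleted the loxP-flanked Nedd4l alleles in the cKO mice, so the other cells of the colon kept the gene. Per the study's methods the cross was Nedd4l fl/fl with VillinCre on a C57BL/6J background and the control littermates were Nedd4l fl/fl. Every mouse of both groups had drunk 2% dextran sulfate sodium (DSS), a polysaccharide that injures the colonic epithelium, for 7 days. There was no library from mice without DSS, so the values do not show what DSS did to any gene, and the sex of the mouse behind each library was not given. That each library is 1 mouse is not stated outright, so the p-values measure the spread between these libraries.

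Complement is a cascade of plasma and tissue proteins that tags microbes and damaged cells, recruits leukocytes and can lyse membranes. The classical pathway starts when C1q binds antibody or other ligands, the protease C1r then activates C1s, which cuts C4 and C2, and the alternative pathway uses factor B, and both form enzymes that cleave C3. Serum amyloid A proteins are small lipid-binding acute phase proteins made under cytokines such as IL-6 and IL-1. Much of the plasma complement and serum amyloid A comes from the liver, while in the colon macrophages make C1q and epithelial, stromal and myeloid cells make C3 and serum amyloid A.

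The 3 chains of C1q lie together on chromosome 4. In the table's coordinates, which match the mouse build GRCm38, they are C1qb (ENSMUSG00000036905, chr4:136880129-136886187), C1qc (ENSMUSG00000036896, chr4:136889804-136893065) and C1qa (ENSMUSG00000036887, chr4:136895917-136898803), all on the minus strand. C4b (ENSMUSG00000073418, chr17:34728380-34743882), Cfb (ENSMUSG00000090231, chr17:34856374-34862518) and C2 (ENSMUSG00000024371, chr17:34862604-34898265) lie in the major histocompatibility region and C3 (ENSMUSG00000024164, chr17:57203970-57228136) elsewhere on chromosome 17, all on the minus strand. The serum amyloid A genes form a cluster on chromosome 7, with Saa3 (ENSMUSG00000040026, chr7:46711998-46715700) and Saa1 (ENSMUSG00000074115, chr7:46740497-46742980) on the minus strand and Saa2 (ENSMUSG00000057465, chr7:46751790-46754313) on the plus strand. All 10 are protein-coding.

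The 250 bases before the RefSeq transcription start (GRCm38.p6) are printed for the serum amyloid A genes, relatives in 1 cluster whose values differed widely, and for C3, the member with the smallest p. Capitals mark letters that match an NF-kB-like pattern (GGG and CC with 5 free bases between them) or a C/EBP-like pattern (TTNNGNAA, where N is any base) on either strand, and overlapping matches are all marked. Each sequence runs 5′ to 3′ on the gene's own strand and ends at the base before the start.
Saa3: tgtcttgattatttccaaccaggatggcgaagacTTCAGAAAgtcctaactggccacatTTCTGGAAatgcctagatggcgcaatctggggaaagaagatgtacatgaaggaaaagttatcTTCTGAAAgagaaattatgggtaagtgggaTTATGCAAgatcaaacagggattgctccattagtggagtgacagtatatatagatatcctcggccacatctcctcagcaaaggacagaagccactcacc
Saa1: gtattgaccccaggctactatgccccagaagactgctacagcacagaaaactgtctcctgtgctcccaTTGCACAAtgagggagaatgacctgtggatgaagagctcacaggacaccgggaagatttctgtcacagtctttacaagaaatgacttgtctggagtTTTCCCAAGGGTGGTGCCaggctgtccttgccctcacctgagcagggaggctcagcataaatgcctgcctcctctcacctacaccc
Saa2: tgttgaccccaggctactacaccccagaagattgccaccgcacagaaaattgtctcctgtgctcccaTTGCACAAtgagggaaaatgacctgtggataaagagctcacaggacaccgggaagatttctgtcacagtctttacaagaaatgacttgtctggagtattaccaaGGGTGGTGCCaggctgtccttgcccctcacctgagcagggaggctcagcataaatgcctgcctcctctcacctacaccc
C3: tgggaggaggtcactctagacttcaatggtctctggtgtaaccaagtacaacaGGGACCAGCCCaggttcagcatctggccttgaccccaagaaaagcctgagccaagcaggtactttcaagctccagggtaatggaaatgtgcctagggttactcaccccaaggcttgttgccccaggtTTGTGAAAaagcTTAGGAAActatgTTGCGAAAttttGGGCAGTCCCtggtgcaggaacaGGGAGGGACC
These windows are chr7:46715677-46715926 (minus strand) for Saa3, chr7:46742981-46743230 (minus strand) for Saa1, chr7:46751583-46751832 (plus strand) for Saa2 and chr17:57228137-57228386 (minus strand) for C3. The last bases of the Saa3 and Saa2 windows lie inside the genes as the table lists them, because the RefSeq starts lie within the listed bounds. The windows of Saa1 and Saa2 were nearly the same sequence, with 238 of 249 aligned bases identical (95.6%), whereas Saa3 aligned with Saa1 over 50 bases only.

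Of the 10 members, 6 had a window in the RefSeq table, the 4 above together with C1qb and C1qc. Saa3 held 4 C/EBP-like matches, no NF-kB-like match and 1 match to an interferon response-like (ISRE-like) pattern (GAAA and GAAA with 2 free bases between them) that overlaps one of the C/EBP-like matches. Counted back from the start, Saa1 held 1 NF-kB-like match at positions −78 to −69 that adjoined a C/EBP-like match at −86 to −79. Saa2 held the NF-kB-like match at −79 to −70, but the letters beside it do not match the C/EBP-like pattern. Both genes held a further C/EBP-like match, at −182 to −175 in Saa1 and at −183 to −176 in Saa2. C3 held 4 NF-kB-like and 3 C/EBP-like matches, C1qc 2 and 1, and C1qb 2 and 0. Among 32851 mouse windows of the same length, 45.8% held the NF-kB-like, 36.8% the C/EBP-like and 2.98% the interferon response-like pattern. A STAT-like pattern (TTCNNNGAA, 7.02% of windows) and TATAAA on the gene's strand (7.59%) were found in none of the 6.

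**Figure D1:**
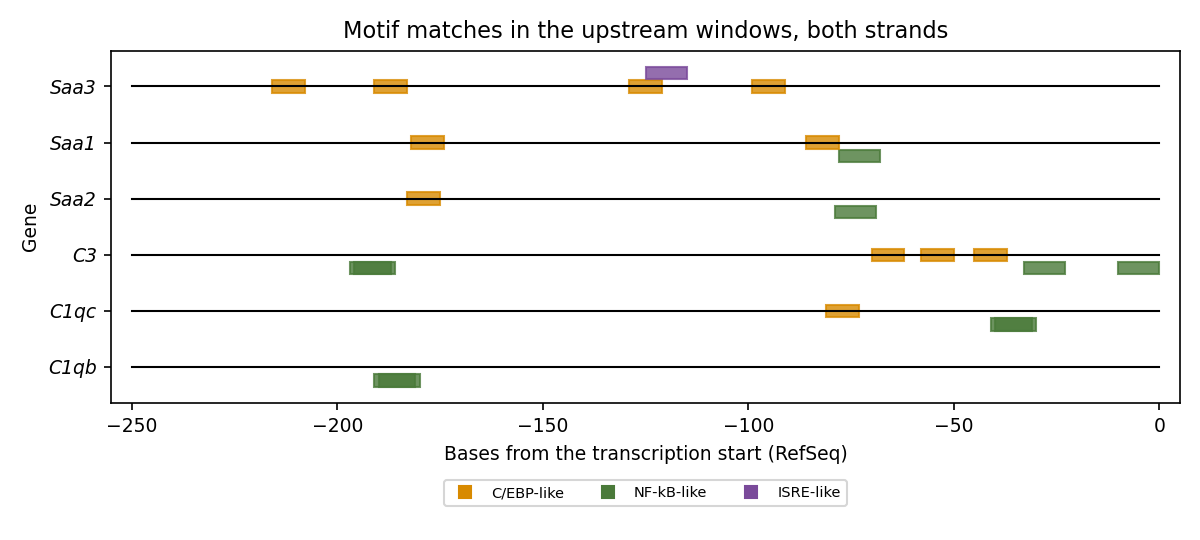
Positions of matches to the 3 patterns found (boxes) along the 250 bases before the RefSeq start of 6 member genes (horizontal lines), with the x axis in bases from the start. Saa1 and Saa2 share the NF-kB-like match near the start and a C/EBP-like match further up, Saa3 has 4 C/EBP-like matches, and the 3 C/EBP-like matches of C3 lie between −70 and −38.

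Nedd4l itself, the gene that was deleted from IECs, read 476, 942 and 566 normalized counts in cKO libraries 1, 2 and 3 and 1241, 1271 and 1266 in WT libraries 1, 2 and 3. The groups did not overlap and the log2 fold change was −0.99 with a standard error (SE) of 0.24 (limma, adjusted p = 0.225). A normalized count is the number of reads of a gene divided by 1 scaling factor per library, and log2 fold changes are cKO minus WT on log2(value + 1). Totals, in units of each library's smallest step, ran from 14914367 to 16202235 in cKO and from 15893599 to 17547270 in WT libraries. Over the tested genes, cKO2 correlated better with the WT libraries (mean Pearson r 0.977) than with its own group (0.966), and cKO1 was the least like WT (0.948), so values without cKO2 or cKO1 are given where they matter.

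Across the 16246 genes tested, 0 had an adjusted p under 0.05 (0%) and the smallest was 0.111, so no member passed the threshold of limma with Benjamini-Hochberg adjustment. At an unadjusted p under 0.05, 4 of the 10 members were higher in cKO and 0 were lower, beside 6.91% of all genes tested higher and 7.08% lower. The same 4, C3, C4b, Saa2 and Saa3, had every cKO library above every WT library, an order that 10.5% of all genes tested showed, and 0 members had the opposite order, shown by 10.9%. Saa2 had a WT mean of 6.71 and passed the filter of 10 only through its cKO libraries. Had cKO been no higher than WT, Saa2 would not have been tested. The median log2 fold change was 0.41 over the members and 0.0013 over all genes tested.

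**Figure D2:**
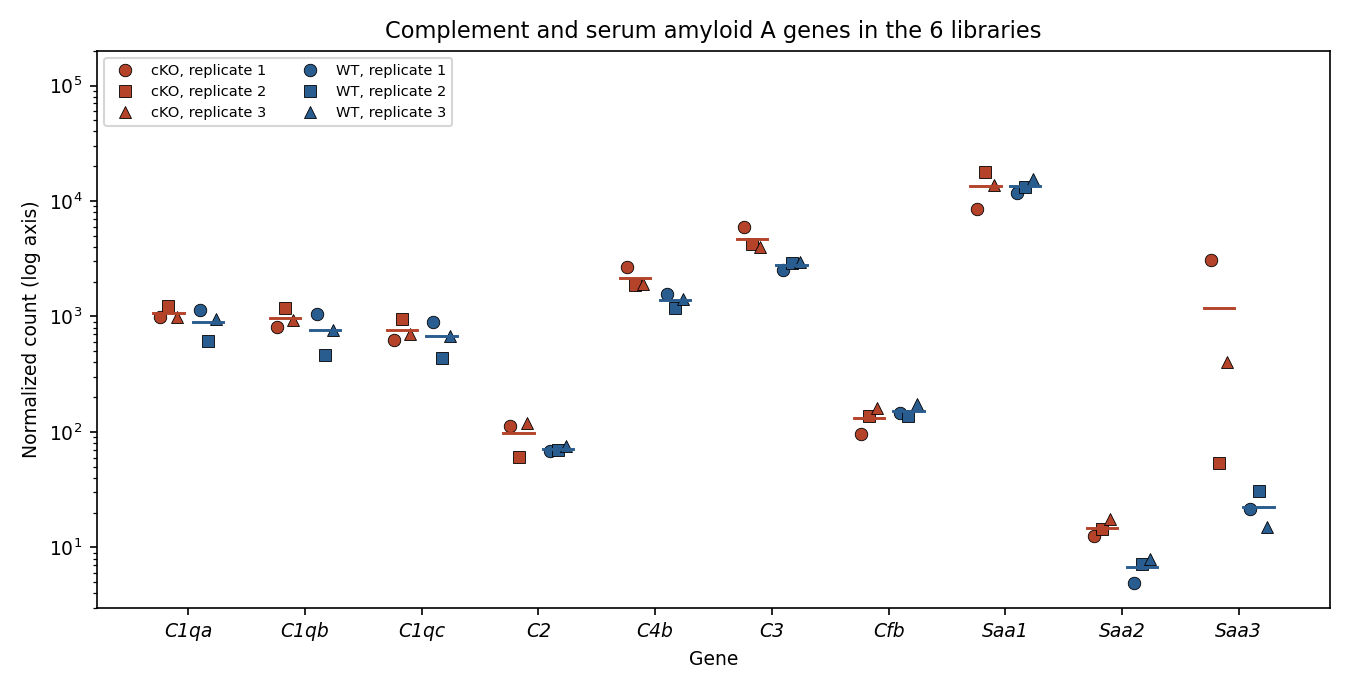
Normalized counts (log axis) of the 10 genes in the 6 libraries. Circles, squares and triangles are replicates 1, 2 and 3, red is cKO, blue is WT, and bars are group means. C3, C4b, Saa2 and Saa3 have no overlap between the groups, and the cKO values of Saa3 run from 54.2 to 3086.

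C1q is built from chains A, B and C, which macrophages make together. C1qa, chain A, read 993, 1243 and 992 normalized counts in cKO libraries 1 to 3 and 1130, 610 and 956 in WT libraries 1 to 3. C1qb, chain B, read 806, 1193 and 930 against 1059, 464 and 760. C1qc, chain C, read 627, 950 and 699 against 899, 441 and 680. All 3 chains were highest in cKO2, next highest in WT1 and lowest in WT2, and the groups overlapped for each.

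The log2 fold change was 0.30 (SE 0.23) for C1qa, 0.42 (SE 0.32) for C1qb and 0.21 (SE 0.29) for C1qc, with limma adjusted p of 0.578, 0.574 and 0.760. WT2 weighed on these values. Without it they fell to 0.042, 0.10 and −0.066. Without WT1 every cKO library of C1qa and C1qb lay above both remaining WT libraries, with log2 fold changes of 0.49 and 0.70.

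Within each library the chains kept a narrow ratio to one another. C1qb per kb of listed gene length was 0.776, 0.918 and 0.896 times C1qa in cKO and 0.896, 0.727 and 0.760 times in WT. C1qc per kb was 0.340, 0.412 and 0.380 times C1qa in cKO and 0.428, 0.389 and 0.383 times in WT. Over the 6 libraries, which the chains share, Pearson's r of log2(value + 1) was 0.961 to 0.983 between any pair of the chains.

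Macrophage markers were read alongside. Of 13 markers 10 were tested, 3 were higher in cKO at an unadjusted p under 0.05 and 0 were lower, and the median log2 fold change was 0.15. Among all genes tested 6.91% were higher and 7.08% lower at that p. The summed level of the 13 was 9569, 10949 and 9601 in cKO and 9103, 6441 and 8658 in WT, again highest in cKO2 and lowest in WT2. Lyz2 made up much of that sum, at 5467, 5830 and 4727 in cKO and 4254, 2795 and 4081 in WT. Cd68, Cd163 and Adgre1 were also highest in cKO2 and lowest in WT2. The other tested markers were not. Fcgr1 was highest in cKO1, Cd14 in cKO3, Mertk in WT3, and Csf1r, Mrc1 and Cx3cr1 in WT1. Fcgr1, the high-affinity IgG receptor of macrophages and monocytes, had the largest log2 fold change of the list at 1.03 (SE 0.20, limma adjusted p = 0.169), and Cx3cr1, the fractalkine receptor of resident macrophages, the lowest at −0.42 (SE 0.28, adjusted p = 0.520). Timd4, a resident macrophage marker below the filter, read 9.59, 8.84 and 0 in cKO and 11.9, 4.50 and 4.99 in WT. In tissue RNA fewer cells of a type and less RNA per cell cannot be told apart, and the part of macrophage content in the C1q values was not tested.

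C4b and C2 supply the 2 subunits of the classical C3 convertase. C4b read 2695, 1869 and 1920 normalized counts in cKO and 1574, 1192 and 1408 in WT. The lowest cKO library stood above the highest WT library, and cKO1 stood above the other cKO libraries. The cKO mean was 2162 ± 463 (SD, n = 3) beside 1391 ± 192 in WT (n = 3). This was a log2 fold change of 0.62 (SE 0.16, limma unadjusted p = 0.00606, adjusted p = 0.242). It was 0.45 without cKO1 and 0.72 without cKO2.

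C4b has a near-identical neighbor, C4a, the sex-limited protein gene, whose first listed transcript shares 96.2% of aligned bases with that of C4b. Of the 50-base windows in the C4b transcript 35.2% also occur in C4a, and 16.5% of the 100-base windows. How reads shared by the 2 genes were counted is not stated, so the split between them is uncertain. C4a was listed at 12.5, 7.74 and 9.28 in cKO and 23.7, 9.90 and 20.0 in WT, far below C4b, and the sum of the 2 genes read 2708, 1877 and 1929 against 1598, 1202 and 1428.

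C2 read 112, 60.8 and 120 normalized counts in cKO and 68.1, 69.3 and 74.9 in WT. WT libraries lay close together, 2 cKO libraries lay above them and cKO2 below. Its log2 fold change was 0.40 (SE 0.28, limma adjusted p = 0.535), and without cKO2 it was 0.70 with no overlap (adjusted p = 0.163). Cfb, factor B of the alternative pathway and the gene next to C2, read 95.9, 137 and 162 in cKO and 147, 137 and 174 in WT. The groups overlapped, with a log2 fold change of −0.24 (SE 0.22, adjusted p = 0.644), which was −0.026 without cKO1.

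Counts of C2 and Cfb carry a limit of annotation. In GENCODE M21, 79.5% of the exon bases of Cfb and 42.8% of those of C2 also belong to Gm20547, a same-strand gene model that spans both and has no row in the table. A further 4.16% of C2 exon bases lie opposite Zbtb12. How reads in shared exons were assigned is not stated, while the other 8 members shared no exon base with another gene.

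C3, on which the pathways converge, read 5919, 4234 and 4010 normalized counts in cKO and 2529, 2911 and 2991 in WT. All cKO libraries exceeded all WT libraries, and cKO1 was the highest. Its mean was 4721 ± 1043 (SD, n = 3) in cKO and 2810 ± 247 in WT (n = 3), a ratio of 1.68. The log2 fold change of 0.73 (SE 0.15) had the smallest p of the members (limma unadjusted p = 0.0016, adjusted p = 0.192). It was 0.56 without cKO1 (adjusted p = 0.0911) and 0.80 without cKO2 (adjusted p = 0.0936), and the groups did not overlap in either case.

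**Figure D3:**
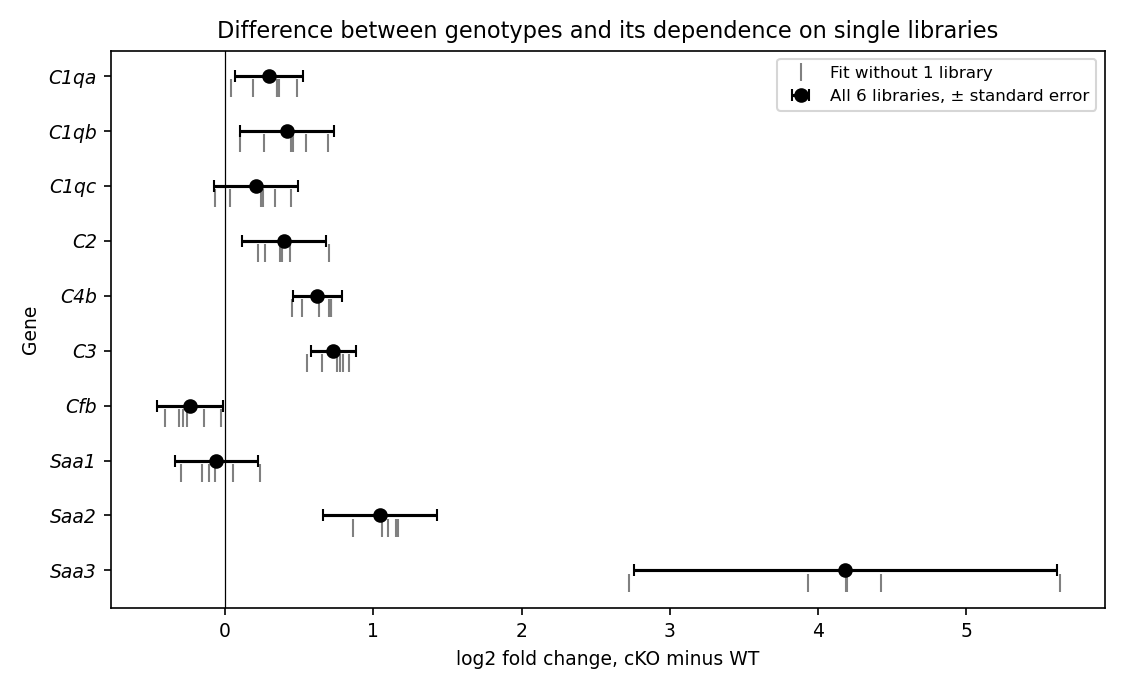
Log2 fold change (x axis, cKO minus WT on log2(value + 1)) of each member over all 6 libraries, as points with bars of ± 1 SE, and without 1 library at a time, as gray ticks. C3 stays between 0.56 and 0.84 and C4b between 0.45 and 0.72 with any library left out, whereas Saa3 runs from 2.73 to 5.63 and Saa1 and C1qc have values on both sides of 0.

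Saa3, the serum amyloid A made in inflamed tissue by myeloid, stromal and epithelial cells, had the largest log2 fold change of the members and the widest spread between cKO libraries. It read 3086, 54.2 and 402 normalized counts in cKO libraries 1, 2 and 3 and 21.7, 30.6 and 15.0 in WT. Every cKO library was above every WT library, but the highest cKO library had 57.0 times the lowest, beside 2.04 times within WT. The cKO mean of 1181 ± 1659 (SD, n = 3) was 52.6 times the WT mean of 22.4 ± 7.83 (n = 3).

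The log2 fold change of Saa3 was 4.18 with an SE of 1.43 (limma unadjusted p = 0.0276, adjusted p = 0.315). The ratio of means rested on cKO1 and was 10.2 without it, from a cKO mean of 228, where the log2 fold change was 2.73 (adjusted p = 0.388). Without cKO2 the log2 fold change was 5.63 (adjusted p = 0.0913).

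Saa2, an acute phase serum amyloid A of plasma, was close to the filter and passed it only through its cKO libraries. It read 12.5, 14.4 and 17.5 normalized counts in cKO and 4.94, 7.20 and 7.99 in WT, which is 13, 13 and 17 against 5, 8 and 8 of each library's smallest step. The groups did not overlap, at means of 14.8 ± 2.56 in cKO (SD, n = 3) and 6.71 ± 1.58 in WT (n = 3). The fit gave a log2 fold change of 1.04 (SE 0.39, limma unadjusted p = 0.0269, adjusted p = 0.314), on a scale that understates changes of genes this low.

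Saa1, the other plasma serum amyloid A, was abundant in both groups. It read 8539, 17936 and 13792 normalized counts in cKO and 11623, 13172 and 15558 in WT. The cKO libraries held both the lowest and the highest value, and the means were nearly equal, at 13422 ± 4710 in cKO (SD, n = 3) and 13451 ± 1983 in WT (n = 3). With a log2 fold change of −0.058 (SE 0.28, limma adjusted p = 0.938), the sign turned when cKO1 (0.24) or WT3 (0.052) was left out. cKO1, highest of all libraries for Saa3, was the lowest for Saa1.

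Saa3 made up 26.5%, 0.301% and 2.83% of the summed counts of Saa1, Saa2 and Saa3 in cKO libraries 1 to 3 and 0.187%, 0.232% and 0.0961% in WT. The first listed transcripts of Saa1 and Saa2 are 94.4% identical, and 13.2% of the 50-base windows of Saa1 also occur in Saa2, so some reads could be counted for either gene, and how they were counted is not stated. Saa3 is more distant, at 76.0% identity with Saa1 and 75.1% with Saa2. In 1.78% of its 50-base windows it matches Saa1.

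Per length, the members spanned a wide range in WT colon. Normalized counts per kb of listed gene length were 5428 ± 800 (SD, n = 3) for Saa1, 864 ± 254 for C1qa, 699 ± 273 for C1qb, 546 ± 48.0 for C3, 349 ± 119 for C1qc, 244 ± 33.6 for C4b, 54.0 ± 6.75 for Cfb, 18.3 ± 0.933 for C2, 8.61 ± 3.00 for Saa3 and 2.66 ± 0.629 for Saa2. Neighboring ranges overlapped for C1qa and C1qb, for C1qb and C3, and for C1qc and C4b, and did not overlap for the other neighbors in that order. In cKO the mean per kb was 453 for Saa3, with single libraries from 20.8 to 1184, and 918 for C3, 380 for C4b and 5.87 for Saa2. By coding length, C3 and C1qc changed places in the WT order and so did C2 and Saa3. The listed length of C1qc is 1931 bases and its coding length 738, whereas those of C3 are 5143 and 4989, and the listed lengths of the serum amyloid A genes, from 2478 to 2606 bases, contain far more than their coding 366 bases.

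**Figure D4:**
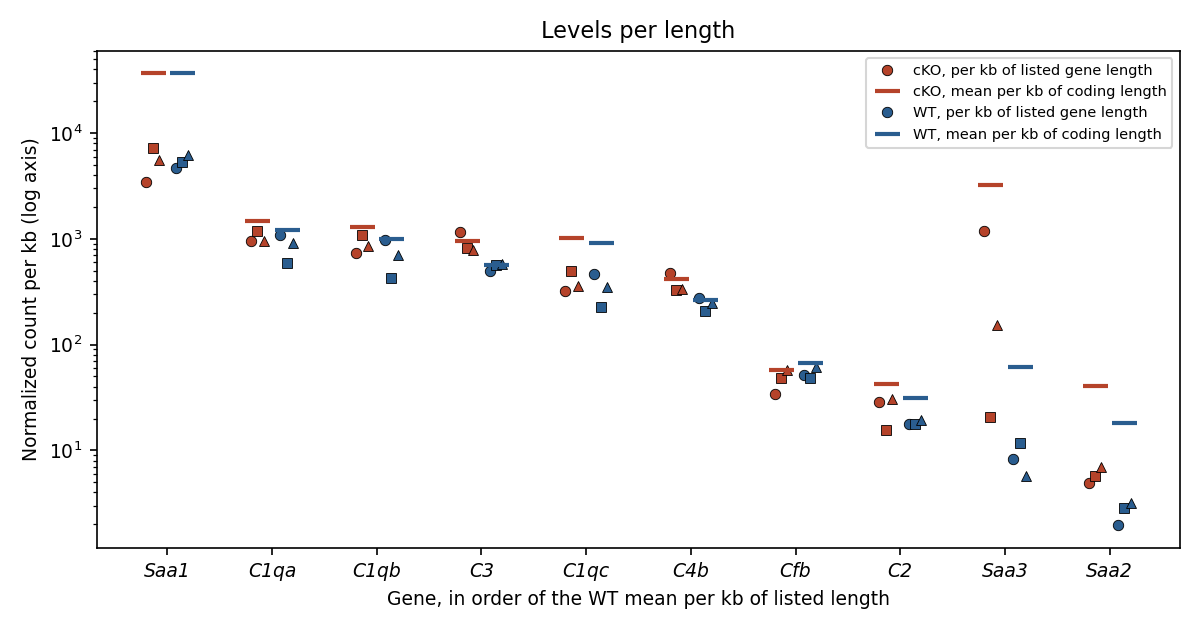
Normalized counts per kb (log axis) of the members in the order of their WT mean, with circles, squares and triangles for replicates 1, 2 and 3 per kb of listed gene length and bars for group means per kb of coding length. Saa1 is the highest in both groups on either length, and the mean of Saa3 is 8.61 per kb in WT and 453 in cKO on the listed length.

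The other complement genes were read from lists. Beside the counts of this list and those that follow, 6.91% of all genes tested were higher and 7.08% lower at that unadjusted p. Every cKO library lay above every WT library in 10.5% of all genes tested and below in 10.9%. Of 16 further initiation genes 9 were tested, 4 were higher in cKO at an unadjusted p under 0.05 and 0 were lower, and the median log2 fold change was 0.65. The 3 with the smallest p were Cfp, Masp1 and C1s1, and none passed the adjusted threshold. Cfp, or properdin, which stabilizes the alternative convertase, read 409, 253 and 239 in cKO and 186, 157 and 189 in WT. Its log2 fold change was 0.72 (SE 0.22, limma adjusted p = 0.276). C1s1, the protease that cuts C4 and C2, read 1816, 1125 and 1412 against 1074, 717 and 920, with a log2 fold change of 0.67 (SE 0.21, adjusted p = 0.287). Masp1, a protease of the lectin pathway, read 119, 68.5 and 45.4 against 38.5, 6.30 and 25.0, with a log2 fold change of 1.90 (SE 0.67, adjusted p = 0.313). For these 3 genes every cKO library lay above every WT library.

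Terminal pathway genes and regulators were the next lists. Of 7 terminal pathway genes only C6 and C8g were tested, with log2 fold changes of 0.55 (SE 0.45) and −0.11 (SE 0.23), and Hc, which encodes C5, was listed at 0.959 to 7.74 in cKO and 0.999 to 4.50 in WT. Of 16 regulators 12 were tested and 0 had an unadjusted p under 0.05, and the median log2 fold change was 0.18. The 3 with the smallest p were Cpn1, the catalytic chain of carboxypeptidase N, at −0.98 (SE 0.45), Serping1, the C1 inhibitor, at 0.59 (SE 0.26), and Cr1l, a membrane regulator of convertases, at 0.14 (SE 0.074), with limma adjusted p of 0.375, 0.380 and 0.423.

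Among receptors both directions occurred. Of 12 receptor genes 11 were tested, 2 were higher and 1 lower at an unadjusted p under 0.05, and the median log2 fold change was 0.29. Lrp1, a large endocytic receptor, read 4556, 4765 and 4692 in cKO and 3817, 3858 and 3790 in WT, a narrow spread with no overlap and a log2 fold change of 0.29 (SE 0.068, limma adjusted p = 0.211). C1qbp, named for binding C1q globular heads though mostly mitochondrial, read 1216, 960 and 905 against 1338, 1528 and 1393, a log2 fold change of −0.48 (SE 0.12, adjusted p = 0.224). Itgb2, the shared beta chain of leukocyte integrins including complement receptor 3, had 0.52 (SE 0.18, adjusted p = 0.306).

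Acute phase genes other than the members included several with wide cKO values, as in Saa3. Of 21 listed genes 9 were tested, 6 were higher in cKO at an unadjusted p under 0.05 with no overlap and 0 were lower, and the median log2 fold change was 1.49. Serpina3m, an antichymotrypsin-like serpin, read 332, 13.3 and 38.2 in cKO and 0.988, 0.900 and 0.999 in WT, which is 1 step in each WT library. Serpina3n, its widely expressed paralog, read 3881, 982 and 1549 against 458, 334 and 411, with a log2 fold change of 2.18 (SE 0.50, limma adjusted p = 0.232). Hp, the hemoglobin scavenger haptoglobin, read 839, 27.6 and 98.0 against 12.8, 5.40 and 5.99, with a log2 fold change of 3.97 (SE 1.23, adjusted p = 0.301). In all 3 genes cKO1 was highest, then cKO3, then cKO2, as in Saa3.

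Cytokines and cytokine receptors made up a further list. Of 24 listed, 20 were tested, 5 were higher and 1 lower at an unadjusted p under 0.05, and the median log2 fold change was 0.37. The lower gene was Il22ra2, with a log2 fold change of −0.92 (SE 0.31, limma adjusted p = 0.295). Il1b, which encodes IL-1β, read 993, 255 and 424 in cKO and 113, 72.0 and 91.9 in WT, a log2 fold change of 2.38 (SE 0.50, limma adjusted p = 0.211). Il11, an IL-6 family cytokine of stromal cells, read 317, 16.6 and 166 against 7.90, 9.90 and 3.00, a log2 fold change of 3.75 (SE 1.12, adjusted p = 0.286). Ifngr2, a chain of the interferon-γ receptor, had 0.29 (SE 0.083, adjusted p = 0.257). Il6 itself was below the filter, at 15.3, 9.95 and 20.6 in cKO and 0, 1.80 and 2.00 in WT, and was named after its values were seen. The cytokine genes Ifng, Il17a and Il17f were also below the filter.

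All 17 signal and transcription factor genes were tested, 4 were higher at an unadjusted p under 0.05 and 0 were lower, and the median log2 fold change was 0.30. Socs3, a feedback inhibitor of the IL-6 receptor, read 3205, 1478 and 3100 in cKO and 514, 1223 and 623 in WT, a log2 fold change of 1.74 (SE 0.44, limma adjusted p = 0.264). Irf9, part of the interferon-stimulated factor ISGF3, had 0.30 (SE 0.093) and Cebpd, a C/EBP family factor of the acute phase response, 0.54 (SE 0.17), both with an adjusted p of 0.278. Of 10 serum amyloid A receptors and carriers 9 were tested, 4 were higher at an unadjusted p under 0.05 with no overlap and 0 were lower. Beside Lrp1 the smallest p belonged to Fpr1, a formyl peptide receptor of neutrophils, with 94.9, 24.3 and 12.4 in cKO and 5.93, 1.80 and 3.00 in WT, and to Tlr2, a sensor of bacterial lipoproteins, with 666, 286 and 569 against 240, 199 and 205. Their log2 fold changes were 2.90 (SE 0.74, adjusted p = 0.224) and 1.15 (SE 0.31, adjusted p = 0.256).

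Over the 8 lists together 88 of 122 genes were tested, of which 24 were higher in cKO at an unadjusted p under 0.05 and 2 were lower. Of all 16246 genes tested, 6.91% were higher and 7.08% lower at that p. In 26 of the 88 every cKO library lay above every WT library and in 2 below, orders shown by 10.5% and 10.9% of all genes tested. No gene of these lists passed the adjusted threshold. Of the 24 counted as higher, Serpina3m, Hp, Il11, Fpr1 and Fpr2 had WT means under 10 (0.962, 8.08, 6.93, 3.57 and 9.59). They were tested only through their cKO libraries, so a lower cKO level of these genes could not have been counted.

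**Figure D5:**
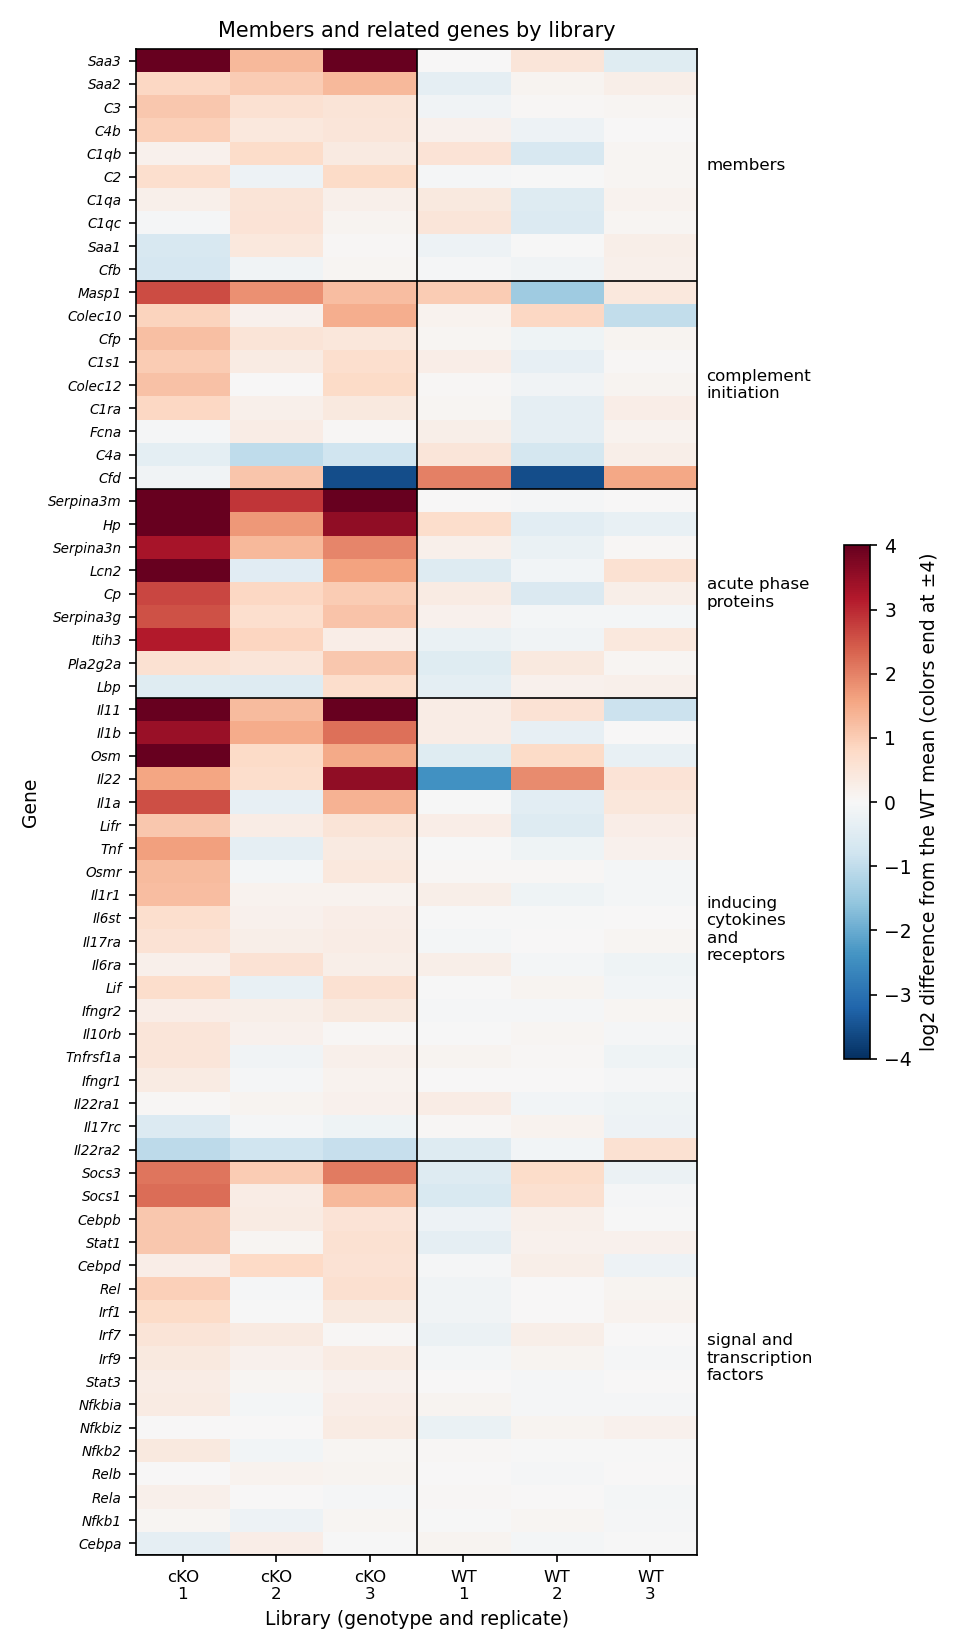
Log2 difference of each library from the WT mean (color, ending at ± 4) for the members and the tested genes of 4 lists, with cKO libraries left and WT libraries right of the line. Saa3, Serpina3m, Hp and Il11 are darkest in cKO1 and cKO3 and paler in cKO2, whereas Saa1 and Cfb are lowest in cKO1.

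Markers of other cells that can make these proteins also differed between libraries. For these and the marker lists that follow, 6.91% of all genes tested were higher and 7.08% lower at an unadjusted p under 0.05. In a short list a count of 1 gene says little beside those shares. Of 12 monocyte and neutrophil markers 10 were tested, 6 were higher at an unadjusted p under 0.05 and 1 was lower, and their summed level was 30507, 18938 and 19569 in cKO and 16130 to 18264 in WT. Ly6c2, Ccr2, Chil3 and Cxcr2 made up little of the WT1 sum of 16130, at 165, 221, 10.9 and 0. The sum thus mostly reads other genes of the list. Log2 fold changes in that list ran from −0.27 (SE 0.11) for Ly6g to 5.10 (SE 1.29) for Chil3. Chil3 read 1002, 46.4 and 93.9 in cKO and 10.9, 0.900 and 3.99 in WT. Ly6g read 2486, 2832 and 2200 in cKO and 2829, 3136 and 3064 in WT, where Cxcr2 read 0, 2.70 and 0. Whether Ly6g follows neutrophils in these libraries was not tested. With WT means of 5.25 and 0.900, Chil3 and Cxcr2 were tested only through their cKO libraries. Had cKO been no higher than WT, neither would have been tested. The granule genes Elane and Mpo were at 0 in 4 libraries each, with at most 3.83 in any. Fibroblast markers, 9 of 9 tested, were higher for 4 genes at an unadjusted p under 0.05 and lower for 0, with sums of 43977, 22129 and 23386 against 11172 to 19109. Both sums were highest in cKO1, the library with the most Saa3, C3 and C4b.

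Mesothelium markers were low, at sums of 167, 65.2 and 62.9 in cKO and 34.9 to 58.3 in WT, with 1 of 3 tested higher at an unadjusted p under 0.05, and Lrrn4 was at 0 in 3 libraries. Among 6 endothelial markers, all tested, 1 was higher at an unadjusted p under 0.05 and 0 were lower, and sums were 2301 to 3917 in cKO and 1601 to 2293 in WT. Epithelial markers, 13 of 13 tested with 0 at an unadjusted p under 0.05, summed to between 230282 and 286797 in cKO and between 264135 and 291609 in WT, so the defining markers of the labelled tissue were abundant in every library. Of 8 hepatocyte markers 3 were tested and 1 was lower at an unadjusted p under 0.05, namely Alb, the albumin gene. Alb read 2.06 to 8.84 in cKO and 6.91 to 25.2 in WT, and passed the filter only through its WT libraries. Had WT been no higher than cKO, Alb would not have been tested. Ttr, the transthyretin gene, made up most of that list, at 101 to 240 in cKO and 198 to 320 in WT, and the list's sums were 116 to 260 and 240 to 342. Smooth muscle markers varied widely in WT, from 4824 to 20465 in sum, with 0 of 6 at an unadjusted p under 0.05. For B and plasma cell, T cell and adipocyte markers 0 of the tested genes had an unadjusted p under 0.05 in either direction. The part of these cell types in the values of the members was not tested.

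Between members, Pearson's r of log2(value + 1) over the 6 libraries was 0.896 for C3 and Saa3, 0.889 for C3 and C4b, 0.883 for C4b and Saa3, and −0.659 for Saa1 and Saa3. These values describe 6 libraries in which the groups themselves differ. Among 13922 tested protein-coding genes, those most like C3 were Rhbdl3 (r 0.997), Apln (0.995) and Ppp1r16b (0.994). The largest r among so many genes over 6 libraries can be this high without any relation between the genes. Most like C1qa were Palm (0.997), Nuak1 (0.991) and Zbtb4 (0.991), and most like Cfb were Slc7a8 (0.997), Top3b (0.990) and 2700049A03Rik (0.984). Saa3 was followed most closely by Iigp1 (0.996), an interferon-induced GTPase that read 4782, 620 and 1817 in cKO and 492, 461 and 399 in WT, by Inhba (0.995), which encodes an activin subunit, and by Pkm (0.995), a pyruvate kinase.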

How the data were processed

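RNA was sequenced from whole colon of 3 Nedd4l knockout and 3 WT mice given DSS, and 1 table of 27202 genes was read. Its values are normalized counts that the authors deposited, a signal in which reads per gene are divided by 1 size factor per library. Per the labels, reads were aligned with HISAT2 2.0.5 and counted with featureCounts 1.5.0-p3. The labels name a human build, but the identifiers are mouse and 97.3% of the 27191 found in GENCODE M21 (GRCm38) have its coordinates. Strand, shared reads and the size factor method are not given in the sources used here. The table also holds the authors' group means and columns of their own comparison (log2 fold change, p-value and adjusted p-value), which were not used. Within each library 100% of values above 0 were whole multiples of 1 step of 0.90 to 1.11 (tolerance 0.1 step), so the depth is known only in steps.

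Genes with a mean of at least 10 were tested on log2(value + 1) with limma 3.58.1 (lmFit, eBayes with trend and robust settings, R 4.3.3), two-sided, with Benjamini-Hochberg adjustment over 16246 genes and a threshold of 0.05. The code of the fit was run on simulated data with the same spread in both groups. Genes such as Saa3 spread more in cKO than in WT, so that run does not show how the fit treats them. The members, lists and rules were chosen with earlier results of these data known. Named are all members, Nedd4l, the 3 genes of smallest p in each of the 8 lists, marker genes that give a list's range, and the 3 genes most like C3, C1qa, Cfb and Saa3. Hc, Zbtb12, C4a, Timd4, Elane, Mpo, Lrrn4, Alb and Ttr were named outside that rule to give the limits of a list or count. So were Fpr2, Il22ra2, Ifng, Il17a, Il17f, Ly6c2, Ccr2, Cxcr2 and the tested macrophage markers other than Fcgr1 and Cx3cr1. Upstream windows come from RefSeq. Alternatives were quantile and TMM scaling, pseudocounts of 0.5 and 5, no filter and a filter at 50, array weights, a replicate block and leaving out each library. Plots were made in Python 3.11.15 with matplotlib 3.10.9.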

Additional observations from a re-analysis of the deposited data

How the results depend on the processing

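With array weights, 262 genes were higher and 369 lower at an adjusted p under 0.05, and 1 member passed, C3 at 0.56 (adjusted p = 0.0383). Without a filter on low values 7 genes were higher and 23 lower. Leaving out 1 library gave 0 to 70 genes higher and 0 to 52 lower, the most without cKO2. Saa1 had the opposite sign with array weights (0.0018), and leaving out 1 library gave −0.30 to 0.24 for Saa1 and −0.066 to 0.45 for C1qc. The causes were not tested. Of 138 values of the members, 133 kept their direction and side of the threshold, 1 passed it and 4 turned sign. Of 318 values of 23 other named genes, 302 kept both and 16 passed. Over the alternatives the adjusted p ran from 0.0383 to 0.490 for C3, 0.0531 to 0.513 for C4b, 0.0767 to 0.513 for Saa3 and 0.0771 to 0.520 for Saa2. Saa2 could not be tested at a mean of 50 or without cKO3, where it was below the filter.

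No pairing by replicate number was seen, as deviations of same-numbered libraries from their group means had correlations of −0.029, −0.090 and −0.056. With 3 libraries per group these values cannot show that the numbers mark no pairs. With the number as a block 0 genes were higher and 0 lower, and it changed no call. The adjusted p with the block was 0.258 for C3 and 0.192 for C4b. Count tests on whole reads (edgeR, with and without the block, and DESeq2) were not run, since whole reads were not accepted as recovered for WT3.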
